A study of Mus musculus with 20 samples.

Results

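The 10 genes described here encode enzymes that carry long-chain fatty acids into mitochondria and oxidise them there: Cpt1a, Cpt1b, Cpt2, Acadl, Acadm, Acadvl, Hadha, Hadhb, Acaa2 and Etfdh. They were taken by symbol from the table of group values, and all 10 had 1 row each among 46744 rows. FPKM, the unit of that table, counts sequenced fragments relative to gene length and to library size. All 10 also passed the filter on low values (1 FPKM or more on average over the 6 groups), as did 12909 named genes in all.

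RNA was sequenced from whole skin of C57BL/6 mice, 20 samples in all. Conditional knockout skin (cKO, labelled Sod2-/-) was taken at 100 days (n = 3) and set against control skin (labelled Sod2+/+) of 100 days (n = 2). It was also taken at 300 days (n = 3) and set against control skin of 300 days (n = 3). Control skin of 700 days (n = 4) was set against control skin of 50 days (n = 5). Sod2 encodes the superoxide dismutase of mitochondria. The labels name neither the cells in which Sod2 was deleted nor the transgene that deleted it. The authors' table gives 1 FPKM value per gene and group, so the values below carry no replicate error and were not tested. The depth of each group is not known either.

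Facts of the whole series bear on these values. Sod2 itself stood at 17.6 FPKM in 100-day cKO against 27.7 in 100-day control skin (log2 ratio of FPKM + 1, -0.63) and at 16.8 against 23.5 at 300 days (-0.46). The FPKM of all rows summed to between 496936 and 692242 per group. Y-linked Uty, Kdm5d, Ddx3y and Eif2s3y had 14.7 to 45.1 FPKM in both cKO groups and at 700 days, and no more than 0.347 FPKM in the 100-, 300- and 50-day controls. Sex-linked transcripts therefore differed in each of the 3 main comparisons, and genotype or age cannot be told apart from them. The labels name 2 title prefixes, one for the 50- and 700-day controls and one for the other 4 groups, and no ratio was taken across them.

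In beta-oxidation an activated long-chain fatty acid is bound to carnitine and crosses the inner mitochondrial membrane. It is then shortened in repeated rounds of dehydrogenation, hydration, dehydrogenation and thiolysis. Electrons of the first step reach the respiratory chain through electron transfer flavoprotein. Muscle, heart, liver and brown fat are the tissues best known for it. Whole skin holds keratinocytes, fat, a thin sheet of skeletal muscle and many other cells, each of which adds to the level measured. In such bulk RNA fewer cells of a type and less RNA per cell cannot be told apart.

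Sequence upstream of the RefSeq start is shown for a few members, chosen for their level, their arrangement or a motif match. Of the 10 genes 8 had an entry among RefSeq promoters of build GRCm38.p6, and Cpt1b and Acaa2 are named only. Acadm is shown in full because it was the most abundant member, and the piece between Hadha and Hadhb because the GENCODE ends of both genes, on opposite strands, border it. The RefSeq start of Hadha lies outside it, within the GENCODE span of Hadha. Short pieces are shown for Etfdh, Cpt1a and Acadvl around the same motifs. The Etfdh and Cpt1a pieces lie before the RefSeq start but within the GENCODE spans of those genes. Capitals mark GCATGCGC, the core of the site of nuclear respiratory factor 1, and AGGTCA, the core letters bound by many nuclear receptors, on either strand (TGACCT is AGGTCA read from the other strand), and in the Hadha-Hadhb piece the GC box GGGCGG.
Acadm, chr3:153944644-153944893, minus strand: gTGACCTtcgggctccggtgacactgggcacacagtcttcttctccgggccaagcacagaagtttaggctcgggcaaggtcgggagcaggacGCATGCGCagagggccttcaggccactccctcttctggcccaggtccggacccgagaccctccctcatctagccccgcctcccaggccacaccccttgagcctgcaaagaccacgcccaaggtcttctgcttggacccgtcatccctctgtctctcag
Hadha-Hadhb, chr5:30155163-30155247, strand of Hadhb: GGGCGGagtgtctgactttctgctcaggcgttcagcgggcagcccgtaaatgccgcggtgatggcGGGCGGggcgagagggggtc
Etfdh, chr3:79628876-79628905, minus strand: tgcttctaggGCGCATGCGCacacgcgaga
Cpt1a, chr19:3323195-3323224, plus strand: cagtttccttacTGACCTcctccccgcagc
Acadvl, chr11:70015498-70015527, minus strand: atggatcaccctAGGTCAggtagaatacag

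The 250 bases before the RefSeq start were searched on both strands. GENCODE exons of the gene itself reach into the windows of Cpt1a, Cpt2, Hadha, Hadhb and Etfdh. GCATGCGC was found in 2 of the 8 windows, Acadm and Etfdh, and in 2.26% of all 32851 windows. In Etfdh a pair of matches on opposite strands overlap. AGGTCA was found in 3 of the 8 windows, Cpt1a, Acadm and Acadvl, and in 14% of all windows. The longer TNAAGGTCA, which contains AGGTCA, was in none of the 8 windows and in 1.14% of all. A direct repeat of AGGTCA with 1 base between the copies was likewise in none of the 8 and in 0.0335% of all. GGGCGG was found in 5 of the 8 windows and in 32.7% of all, and CCAAT in 2 of the 8 and in 33.8% of all. The windows of Hadha and Hadhb overlap and share a GGGCGG match, so they are not independent in that count. The piece between the GENCODE ends of Hadha and Hadhb is 85 bases long, of which 69.4% are G or C. These matches describe letters in the windows and show no binding.

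In the GRCm38 (mm10) assembly, with the GENCODE release M21 annotation, Acadm lies on chromosome 3 from 153922357 to 153944632 and Cpt2 on chromosome 4 from 107903981 to 107923610, and neither is overlapped by another gene. Cpt1a lies on chromosome 19 from 3322334 to 3385733, also without overlap. Cpt1b lies on chromosome 15 from 89416405 to 89425863, and Chkb, which encodes a choline kinase, lies 496 bases away. The predicted gene Gm44502 spans parts of both. The table holds both in 1 row, so the value called Cpt1b here is that of the Chkb and Cpt1b locus together. The Etfdh row likewise carries the predicted gene Gm37973, which lies within it. The span of Acadvl overlaps that of Dvl2 on the other strand, and that of Hadha overlaps Garem2. The sources used here do not say whether the authors' counting used strand.

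Acadm, the medium-chain acyl-CoA dehydrogenase, was the highest of the 10 genes in every group. It stood at 145 FPKM in 100-day cKO and 240 in 100-day control skin, at 163 in 300-day cKO and 280 in 300-day control skin, and at 93.9 FPKM at 700 days against 116 at 50 days. It made up 24.6% of the summed FPKM of the 10 genes in 100-day cKO against 28.5% in 100-day control skin, and 23.8% against 30.1% at 300 days. The sum itself was 589 FPKM in 100-day cKO against 841 in 100-day control skin, 688 against 930 at 300 days, and 379 at 700 days against 422 at 50 days. Hadha and Hadhb came next after Acadm, in one order or the other, in all 6 groups. Cpt2 was the lowest member in both cKO groups and in the 700- and 50-day controls, and Cpt1a was the lowest in the 100- and 300-day controls.

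**Figure D1:**
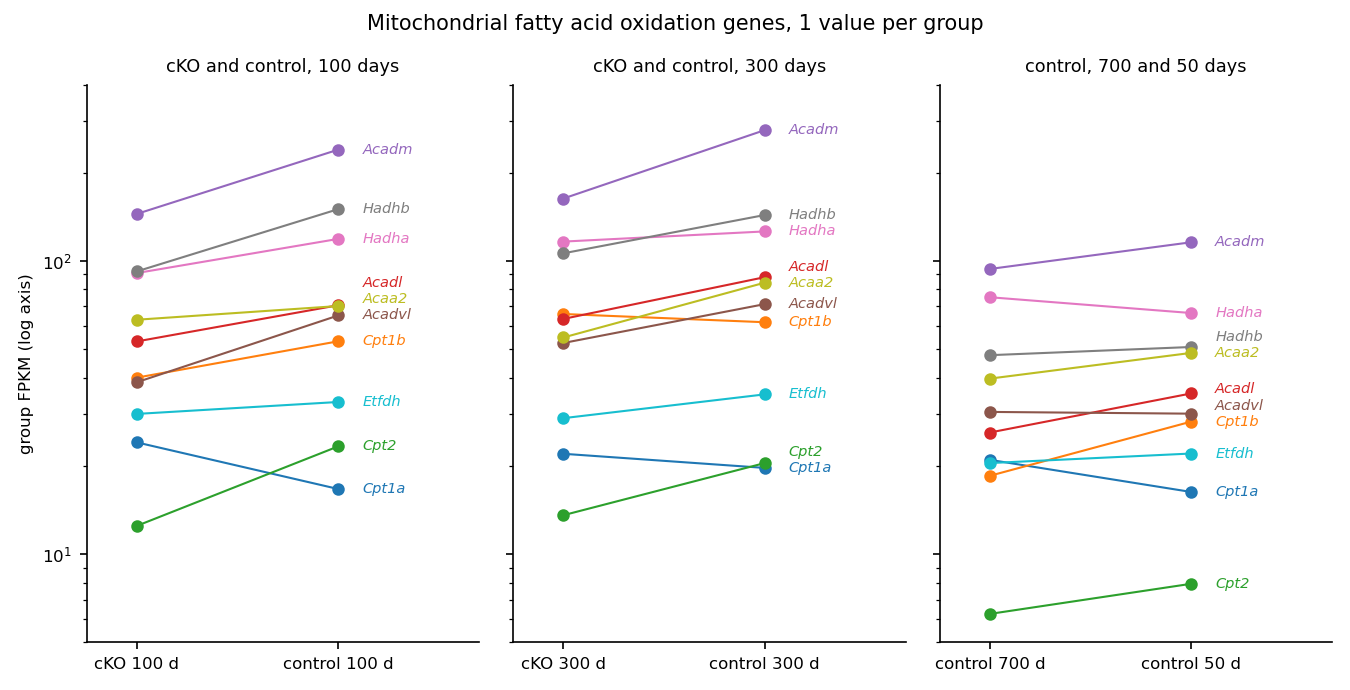
Group FPKM (log axis) of the 10 genes in the 3 pairs of groups, 1 point per gene and group with lines joining the groups of a pair. Acadm is highest in every group, and Cpt1a stands higher in each left-hand group while most other members stand lower there. The left-hand groups are those with Y-linked transcripts.

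The first question was how the knockout of Sod2 bore on these genes at 100 days. In cKO skin 9 of the 10 members stood lower than in control skin, and Cpt1a alone stood higher. The median log2 ratio of (FPKM + 1) was -0.40, against 0.02 over all 12909 genes. No member reached a log2 size of 1, the size at which a gene was counted, and 6.63% of all genes did so, 2.28% being higher and 4.35% lower. At a size of 0.5, 4 members were lower (15.1% of all genes) and 1 was higher (11.9% of all genes). Below 0 lay 48.3% of all genes.

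Among the carnitine enzymes, Cpt2, the carnitine palmitoyltransferase of the inner membrane, stood at 12.5 FPKM in 100-day cKO against 23.3 in 100-day control skin (log2 ratio -0.85). This was the lowest ratio of the 10. Cpt1a, the form of the outer-membrane enzyme best known from liver and the gate of the pathway, stood at 24.1 FPKM in cKO against 16.7 in control skin (0.50). Cpt1b, the form known from muscle and brown fat, stood at 40 against 53.2 FPKM (-0.40). Cpt1a was 1.93 times the level of Cpt2 in cKO and 0.715 times in control skin. Cpt1b was above Cpt2 in both groups, at 3.20 times its level in cKO and 2.28 times in control skin.

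The dehydrogenases of the first step were all lower in cKO at 100 days. Acadvl, which acts on very long chains, stood at 38.6 FPKM in cKO against 65.2 in control skin (log2 ratio -0.74), and Acadm had a log2 ratio of -0.72. Acadl, the long-chain enzyme, stood at 53.2 against 70.7 FPKM (-0.40). Hadha and Hadhb, the subunits of the trifunctional protein that carries out the later steps on long chains, stood at 91 against 119 FPKM (-0.38) and at 92.2 against 150 FPKM (-0.70). Hadha holds the hydratase and long-chain hydroxyacyl-CoA dehydrogenase and Hadhb the thiolase. Acaa2, a thiolase for shorter chains, stood at 63 against 70.2 FPKM (-0.15). Etfdh, which passes electrons from electron transfer flavoprotein to ubiquinone, stood at 30.1 against 33 FPKM (-0.13). The last 2 were the nearest to no difference.

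At 300 days 8 of the 10 members stood lower in cKO than in control skin, with Cpt1a and Cpt1b the exceptions. The median log2 ratio was -0.43, against -0.01 over all genes. Again no member reached a size of 1, as 7.17% of all genes did, 1.96% being higher and 5.21% lower. At a size of 0.5, 3 members were lower, Acadm, Acaa2 and Cpt2, as were 14.9% of all genes, and none was higher (10.4% of all genes). Below 0 lay 51.3% of all genes.

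Acadm had the lowest ratio at this age (-0.77). Acaa2 stood at 54.8 FPKM in cKO against 84.3 in control skin (-0.61), a wider gap than at 100 days. Cpt2 stood at 13.6 against 20.4 FPKM (-0.56). Acadl stood at 63.5 against 88.1 FPKM (-0.47), Acadvl at 52.5 against 71.3 FPKM (-0.43) and Hadhb at 106 against 143 FPKM (-0.43). Hadha and Etfdh lay nearer to no difference, at 116 against 126 FPKM (-0.11) and 29.1 against 35.1 FPKM (-0.26). Cpt1a stood at 22 FPKM in cKO against 19.7 in control skin (0.15). Cpt1b stood at 65.9 against 61.8 FPKM (0.09).

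The comparisons at 100 and 300 days share no group. Cpt2, Acadl, Acadm, Acadvl, Hadha, Hadhb, Acaa2 and Etfdh, 8 of the 10, were below 0 at both ages, as were 31.5% of all genes. The difference of the genotype differences, 300 minus 100 days, had a median of 0.11 over the 10 genes, with 5 above and 5 below 0, against -0.02 over all genes, 52.3% of which were below 0. It ran from -0.46 for Acaa2 to 0.49 for Cpt1b, and no member reached a size of 1, as 8.85% of all genes did, or of 0.5 (14.4% of all genes above and 15.9% below). When the groups were rescaled to equal totals, this median was 0.22, and Acadl and Acadm then lay above 0.

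**Figure D2:**
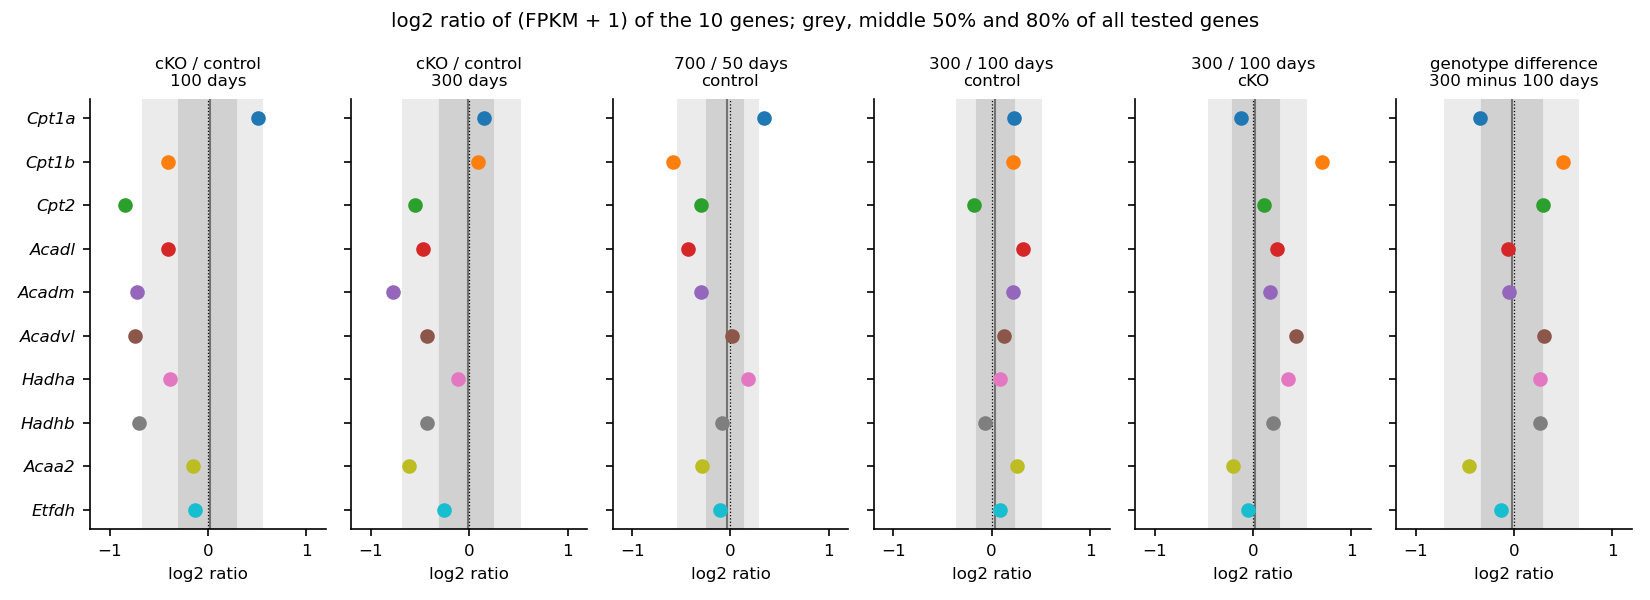
Each panel plots the log2 ratio of (FPKM + 1) of the 10 genes in 1 comparison, with the median (line), the middle 50% (dark grey) and the middle 80% (light grey) of all tested genes. In both cKO comparisons most members lie left of the line, and Cpt1a lies right of it.

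Ratios between members within a group do not depend on how the groups were scaled. Hadha and Hadhb encode partners in 1 complex and have the GENCODE ends that border the 85-base piece shown above, yet their FPKM ratio was not the same in the groups. It was 0.987 in 100-day cKO against 0.792 in 100-day control skin, 1.1 against 0.879 at 300 days, and 1.58 at 700 days against 1.31 at 50 days. The ratio of Cpt1b to Cpt1a was 1.66 in 100-day cKO against 3.19 in 100-day control skin and 3 against 3.14 at 300 days. At 700 days it was 0.882, against 1.74 at 50 days. Acadl to Acadm was 0.367 in 100-day cKO against 0.295 in 100-day control skin, and 0.388 against 0.315 at 300 days. At 700 days it was 0.277, against 0.305 at 50 days. Cpt1a to Cpt2 was 1.62 against 0.963 at 300 days, and 3.35 at 700 days against 2.06 at 50 days. Hadha to Hadhb and Cpt1a to Cpt2 were thus both greater in cKO at each age and at 700 days. Acadl to Acadm was greater in cKO at each age and smaller at 700 days. The cKO and 700-day groups are also those with Y-linked transcripts, which cannot be told apart from genotype or age here.

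**Figure D3:**
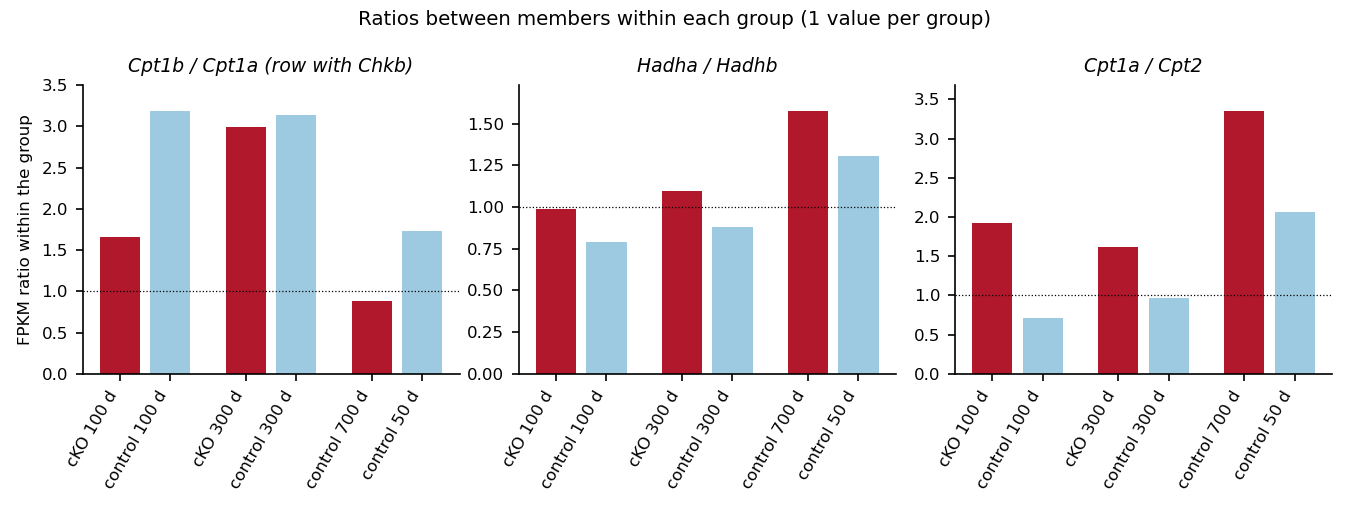
Bars give the FPKM of one gene over that of another within each of the 6 groups, with a dotted line at 1. The value for Cpt1b includes Chkb. Cpt1a over Cpt2 is 1.93 in 100-day cKO and 0.715 in 100-day control skin.

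The rest of the mitochondrial pathway was read from a list of 15 other genes. At 100 days 13 of the 15 were lower in cKO (median log2 ratio -0.48), as were 48.3% of all genes, and 2 of them reached a size of 1, as 4.35% of all genes did downward. Acsl1, an acyl-CoA synthetase that activates long-chain fatty acids, stood at 126 FPKM in cKO against 307 in control skin (-1.28). Etfb, a subunit of electron transfer flavoprotein whose row also holds Vsig10l and other genes, stood at 84.2 against 176 FPKM (-1.06). Slc25a20, the carrier that takes acylcarnitine across the inner membrane, stood at 14.9 against 19.2 FPKM (-0.34). The gene with the highest ratio of cKO to control skin was Acad9, best known for the assembly of respiratory complex I, at 58.3 against 43.4 FPKM (0.42). At 300 days 13 of the 15 were again lower (median -0.41), beside 51.3% of all genes, none at a size of 1, and Acad9 stood at 73.6 against 41 FPKM (0.83). At both ages 12 of the 15 were below 0, as were 31.5% of all genes.

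**Figure D4:**
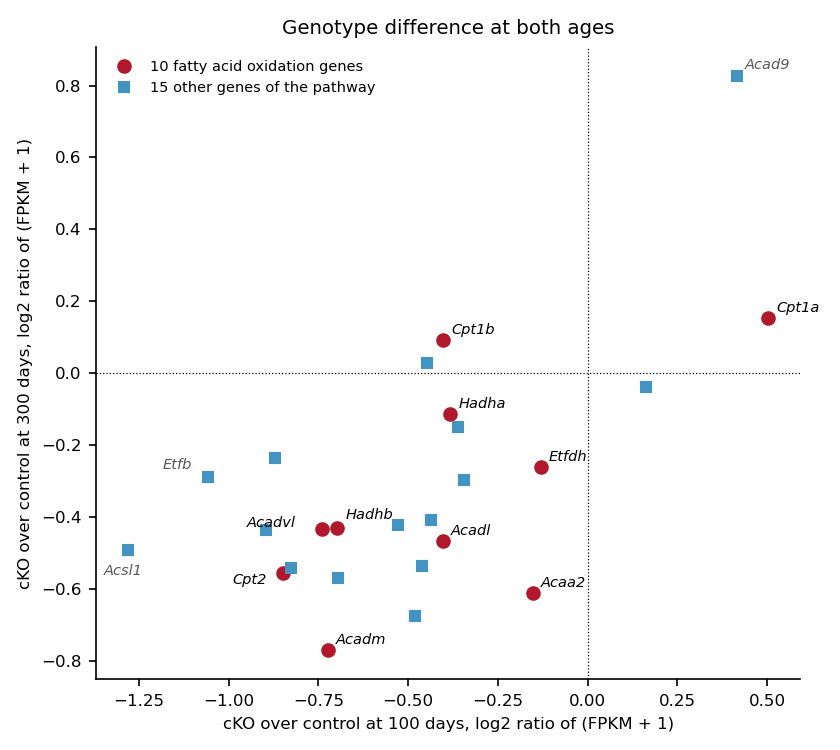
The log2 ratio of (FPKM + 1), cKO over control, is plotted at 100 days (horizontal) against 300 days (vertical) for the 10 members and 15 other genes of the pathway. Most members lie in the lower left, Cpt1a lies above 0 on both axes, and Acad9 has the highest ratio at 300 days (0.83).

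Peroxisomes shorten very long chains by enzymes of their own. Of 12 such genes 10 were lower in cKO at 100 days (median -0.47), beside 48.3% of all genes, and 3 of them at a size of 1, beside 4.35% of all genes. Abcd2, a transporter of the peroxisomal membrane, stood at 8.22 FPKM in cKO against 31.5 in control skin (-1.82). Scp2, whose long form is a thiolase of peroxisomes, stood at 83.8 against 178 FPKM (-1.08). At 300 days 11 of 12 were lower (median -0.41), beside 51.3% of all genes, and none reached a size of 1. The mitochondrial and peroxisomal genes therefore had medians close to each other at each age.

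Another list held 14 regulators of the pathway and related genes. At 100 days 10 of them were lower and 4 higher in cKO (median -0.50), beside 48.3% of all genes lower. At 300 days 9 were lower and 5 higher (median -0.15), beside 51.3% of all genes lower. At 100 days 3 were lower at a size of 1 (4.35% of all genes). Pparg, the nuclear receptor of fat cells, stood at 15.3 FPKM in cKO against 35 in control skin (-1.14), and at 10.2 against 23 FPKM at 300 days (-1.10). Ppargc1b, a coactivator of mitochondrial genes, stood at 1.79 against 5.24 FPKM at 100 days (-1.16) and 2.93 against 6.55 FPKM at 300 days (-0.94). Acaca, the acetyl-CoA carboxylase whose product malonyl-CoA inhibits Cpt1, stood at 73.9 against 182 FPKM at 100 days (-1.29) and 62.2 against 112 FPKM at 300 days (-0.84). Ppara, the receptor best known for switching on fatty acid oxidation in liver, stood at 2.35 against 3.71 FPKM at 100 days (-0.49) and 3.92 against 4.09 FPKM at 300 days (-0.05). Others stood higher. Nrf1, a transcription factor of mitochondrial genes, stood at 18.9 against 16.4 FPKM at 100 days (0.19) and 22.9 against 17.3 FPKM at 300 days (0.38). Tfam, which maintains mitochondrial DNA, stood at 15.4 against 10.3 FPKM at 100 days (0.53) and 14.4 against 17.2 FPKM at 300 days (-0.24). Ppargc1a, a coactivator related to Ppargc1b, stood at 6.79 against 7.27 FPKM at 100 days (-0.09) and 7.08 against 4.57 FPKM at 300 days (0.54). At 300 days Pparg alone of the 14 was lower at a size of 1, as were 5.21% of all genes.

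Markers of white fat, which uses this pathway, stood lower in cKO at both ages. Those of the skeletal muscle list, a tissue that uses it too, stood lower at 100 days but not at 300 days. The 6 tested genes of slow and heart muscle had medians of 0.61 at 100 days and -0.01 at 300 days. Of these 6, 4 were above 0 at 100 days and 3 at 300 days. All 18 white adipocyte markers were lower in cKO at both ages, with medians of -1.70 at 100 days and -1.17 at 300 days. Of all genes 48.3% were lower at 100 days and 51.3% at 300 days. Their summed level was 2805 FPKM in 100-day cKO against 8914 in 100-day control skin and 3140 against 6534 at 300 days. Of 17 skeletal muscle markers 16 were lower in cKO at 100 days (median -0.87), with a sum of 14118 against 21668 FPKM. At 300 days 6 of 17 were lower (median 0.07), with a sum of 20784 against 18679 FPKM. None of the white adipocyte or skeletal muscle markers was at 0 in any group. The part of fat and muscle in the members' levels was not tested.

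The keratinocyte markers, 12 in all, stood higher in cKO in 9 cases at 100 days (median 0.45) and in 12 at 300 days (median 0.51). Of all genes 48.3% were lower at 100 days and 51.3% at 300 days. Their summed level was 3570 FPKM in 100-day cKO against 2823 in 100-day control skin and 4367 against 2909 at 300 days. The 10 lymphocyte markers summed to 9.24 FPKM in 300-day cKO against 150 in 300-day control skin, and to 8.05 against 7.17 FPKM at 100 days. A list of 12 genes of the respiratory chain and the citric acid cycle, which take up the products of beta-oxidation, had medians of -0.48 at 100 days and -0.23 at 300 days, with none of the 12 above 0 at either age. The members' own medians were -0.40 and -0.43. They lay between those of the adipocyte and the keratinocyte lists. So did the medians of all genes, 0.02 and -0.01, so this position says little.

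**Figure D5:**
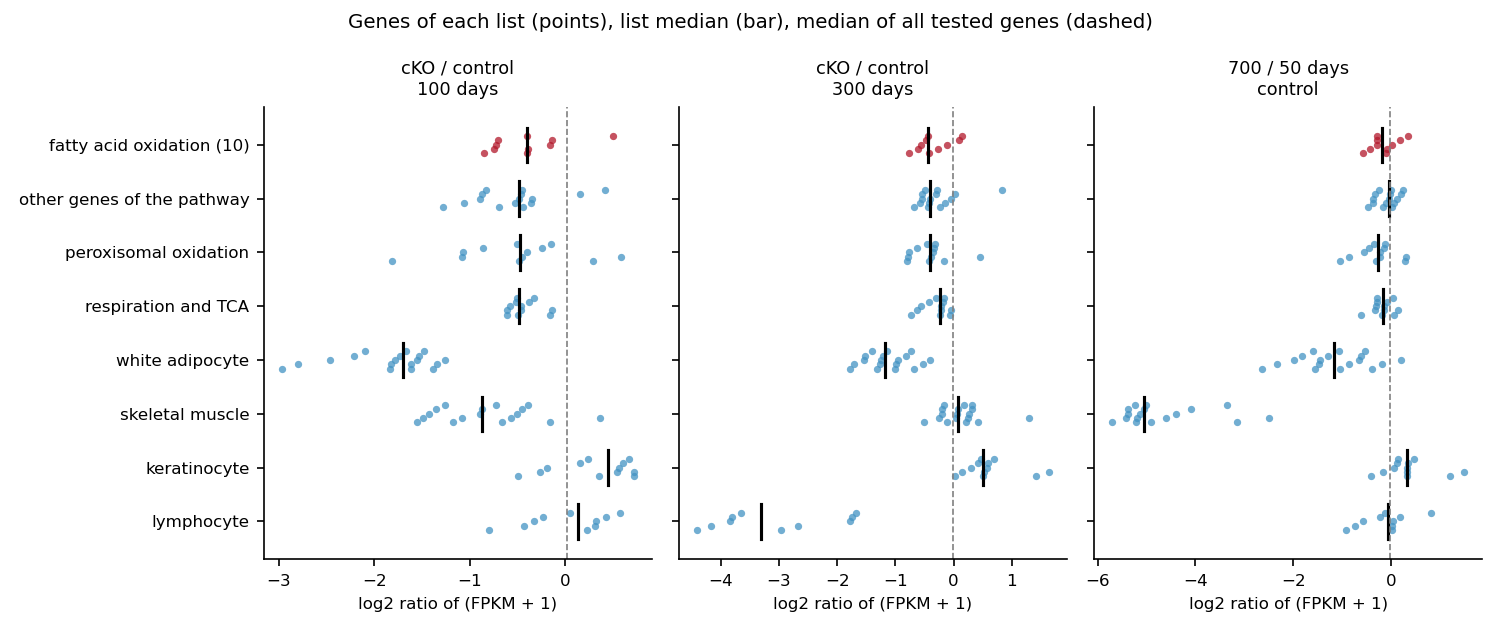
Points are the log2 ratios of (FPKM + 1) of the tested genes of each list in 3 comparisons, bars the list medians and the dashed line the median of all tested genes. The horizontal scales differ between panels. In both cKO comparisons the median of the 10 members (red) and that of all tested genes lie between the adipocyte and keratinocyte medians. The points of the lists overlap.

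The second question was how the genes stood in control skin of 700 days against 50 days. Of the 10 members 7 were lower at 700 days and 3 higher, with a median of -0.19 against -0.03 over all genes, of which 55.2% were lower. With the groups rescaled to equal totals 6 members were lower and 4 higher, with a median of -0.09 against 0.06 over all genes. No member reached a size of 1, as 3.9% of all genes did, and 1, Cpt1b, was lower at a size of 0.5 (11% of all genes). None was higher at that size (3.01% of all genes). Cpt1b stood at 18.5 FPKM at 700 days against 28.3 at 50 days (-0.59). Acadl stood at 26 against 35.3 FPKM (-0.43), Acadm had a log2 ratio of -0.30 and Cpt2 stood at 6.25 against 7.92 FPKM (-0.30). Acaa2 stood at 39.7 against 48.6 FPKM (-0.28), and Etfdh at 20.5 against 22 FPKM (-0.10).

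Cpt1a stood at 21 FPKM at 700 days against 16.3 at 50 days (0.35), above Cpt1b at 700 days and below it at 50 days. Hadha stood at 75.2 against 66.5 FPKM (0.18) and Acadvl at 30.6 against 30.1 FPKM (0.02). Hadhb stood at 47.7 against 50.9 FPKM (-0.09), a sign that turned when the groups were rescaled to equal totals (0.01). Cpt1a was thus higher at 700 days, and higher in cKO skin at both ages. Those are also the groups with Y-linked transcripts, which cannot be told apart from genotype or age here.

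The skeletal muscle markers were far lower at 700 days. All 17 were lower (median -5.04), beside 55.2% of all genes, and summed to 106 FPKM at 700 days against 4213 at 50 days. The white adipocyte markers had a median of -1.18 and summed to 447 against 1281 FPKM. Pdk4, a kinase that blocks glucose oxidation in muscle and other tissues that burn fat, stood at 2.22 against 10.9 FPKM (-1.88). Of the 14 regulators and related genes it alone reached a size of 1, beside 3.25% of all genes lower and 0.643% higher. Of 15 other pathway genes none reached a size of 0.5, beside 11% of all genes lower and 3.01% higher. The median of the 15 was -0.05, against -0.03 over all genes. The summed level of the 10 members was 379 FPKM at 700 days and 422 FPKM at 50 days. The part of fat and muscle in these levels was not tested.

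Between 300 and 100 days the members differed little. These comparisons share their groups with the cKO comparisons and add no independent values. In control skin 8 members were higher and 2 lower at 300 days (median 0.17), beside 45.4% of all genes lower. No member reached a size of 0.5, as 10% of all genes did upward and 5.29% downward, or a size of 1 (4.67% of all genes). After rescaling to equal totals 5 members were higher and 5 lower (median -0.03), so no direction is given. In cKO skin 7 were higher and 3 lower (median 0.19), beside 47.1% of all genes lower, and no member reached a size of 1 (4.06% of all genes). Cpt1b, at 65.9 FPKM at 300 days against 40 at 100 days (0.71), was the one member at a size of 0.5, beside 11.7% of all genes. None was lower at that size (8.01% of all genes). Skeletal muscle markers had a median of 0.80 in the same comparison and 16 of 17 were higher at 300 days. The 6 tested genes of slow and heart muscle had a median of -0.79 there, and 4 of them were lower. The part of muscle in the value of Cpt1b, which includes Chkb, was not tested.

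Genes with a pattern like that of the 10 were sought among 9267 others of at least 5 FPKM with no 0, by the distance over 4 log2 ratios: 700 against 50 days, cKO against control at both ages, and 300 against 100 days in control skin. The nearest to the members' median were Arl2, Aida, Ndufb6, Cenpv and Bcl7c, at distances of 0.0539 to 0.126. The nearest, Arl2, a small GTPase found partly in mitochondria, stood at 5.94 FPKM in 100-day cKO against 8.4 in 100-day control skin. Ndufb6 encodes a subunit of respiratory complex I. The rows nearest to Cpt1b held the mitochondrially encoded mt-Nd2, then Ubl5, Tmsb15b1 with related genes, Nqo2 and Ppp1r11, at distances of 0.151 to 0.201. With 4 ratios and so many genes, near patterns are a description only.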

How the data were processed

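Ribosomal RNA was removed from whole-skin RNA by 1 of 2 kits and the rest made into directional libraries read for 75 cycles, per the labels' protocols, which do not say which sample had which kit. HISAT2, Cufflinks, Cuffdiff and mm10 are named in the submitters' processing notes, without versions. The deposited FPKM values were made by the authors, 1 column per group. The sources used here give neither the annotation nor how a group's samples were combined, and depth is unknown. With 1 value per group no test was made.

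Each gene was taken from its row with the highest mean, multi-symbol rows included, without predicted, Rik, LOC, microRNA and small nucleolar names and pseudogenes. Those averaging 1 FPKM or more entered, 12909 in all, 744 of them rows with several symbols. Log2 ratios of (FPKM + 1) understate the change of low genes. A gene was counted at a size of at least 1. The members, 11 other gene lists and comparisons were chosen with earlier results of these data known. Named were all members, genes of the lists past a size of 1 and the 5 nearest patterns. Not every gene this names is printed. Acta1, Cox4i1, some other genes and 1 list were not analysed here. The counting was run on simulated tables with planted changes larger than the size counted. That checks the code only and says nothing of differences as small as those of the members. Other settings tried were a filter of 5 FPKM or none, pseudocounts of 0.1 and 0.5, a common median, equal totals (TPM), summed rows, genes at 0 left out and a size of 0.5. Python 3.11.15, pandas 2.3.3, numpy 2.4.6 and matplotlib 3.10.9 were used.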

Additional observations from a re-analysis of the deposited data

How the results depend on the processing

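No member was counted at a size of 1 in any of the 6 comparisons under the alternatives of pseudocount, filter, scaling, summed rows or genes at 0 left out. Cpt2 came close to that size under equal totals, at -0.994 in cKO against control at 100 days. At a size of 0.5 the counts were 5 in cKO against control at 100 days, 3 at 300 days, 1 at 700 against 50 days and 1 at 300 against 100 days in cKO skin. The members' median moved by less than 0.25 under each of those alternatives. Rescaling to equal totals moved the median of all genes to -0.10 in cKO against control at 100 days and to -0.15 in control skin at 300 against 100 days. At 700 against 50 days it moved the members' median to -0.09, against -0.19 as deposited, and that of all genes to 0.06. The members' median less that of all genes was -0.44 at 100 days in that scaling, against -0.42 as deposited. Members changed sign under equal totals alone: Hadhb at 700 against 50 days (0.01), Acadl (0.05) and Acadm (0.07) in the difference of the genotype differences, and Acadvl, Hadha and Etfdh in control skin at 300 against 100 days (-0.07, -0.11 and -0.11). No replicate could be left out, and unknown depth gives no counting error. No paired analysis was possible because the table holds 1 value per group.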

Other observations

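Brown fat, which is rich in the same enzymes, was read from 10 markers, of which 9 were tested. Ucp1, the uncoupling protein of brown fat, stood at 2.49 FPKM in 100-day cKO against 22.6 in 100-day control skin (log2 ratio -2.76) and at 11 against 29.2 FPKM at 300 days (-1.33). At 700 and 50 days it was 0.0436 and 0.141 FPKM. Elovl3, an elongase shared by brown fat and sebaceous glands, stood at 17.7 against 9.8 FPKM at 100 days (0.79) and 13.2 against 6.73 FPKM at 300 days (0.88). The median of the 9 was -0.60 at 100 days and -0.76 at 300 days.

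All 9 tested sebaceous gland markers stood higher in cKO at 100 days (median 0.54), and 6 of 9 did at 300 days (median 0.29). Of all genes 48.3% were lower at 100 days and 51.3% at 300 days. Far2, a fatty acyl-CoA reductase that makes wax alcohols, stood at 15 against 5.61 FPKM at 100 days (1.28). Genes of slow and heart muscle differed among themselves at 100 days. Myl2, a slow myosin light chain, stood at 28.7 FPKM in cKO against 1.05 in control skin, while Actc1, the cardiac actin, stood at 0.89 against 12.4 FPKM. Fabp3, the fatty acid carrier of heart and muscle, stood at 25.1 FPKM in both groups at 100 days, and at 0.106 FPKM at 700 days against 9.55 at 50 days.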
